A study of Homo sapiens with 10 samples.

Results

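The genes described here carry fatty acids into cells and oxidise them, together with the nuclear receptor PPARA and several of its classic target genes. The set was given as a list of 30 gene symbols, and all 30 were found among the 19215 symbols of the counts. A filter on low counts left 13349 genes for testing and 29 of the 30, since PDK4 had too few counts in every library. Libraries came from a pair of human liver tumour lines. HepG2 is a widely used line with many features of hepatocytes, and SK-Hep1 is an adherent line from a liver tumour with a reported endothelial origin. Both were transduced with lentivirus encoding a tough decoy (TuD), a transcribed RNA with exposed binding sites that holds a microRNA away from its targets. The decoy was directed at miR-17 (miR-17 TuD) or was a negative control (NC TuD). All 4 groups therefore carried a vector and had passed through the same steps: a multiplicity of infection of 5, 48 h with polybrene at 10 µg/mL, 2 weeks of puromycin at 1 µg/mL, and medium with 10% fetal bovine serum. Resistant colonies were pooled, so each arm of each line is 1 stable line. HepG2 had 3 libraries in each arm and SK-Hep1 had 2. Nothing in the labels states that replicates were separate cultures, so p-values measure the spread between libraries, which may be technical. What the decoy itself did cannot be told apart from any difference that arose while the stable lines were made.

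Long-chain fatty acids enter cells through proteins such as CD36 and fatty acid transport proteins, are bound by FABP1 in liver, and are activated to acyl-CoA by acyl-CoA synthetases. In mitochondria, acyl-CoA dehydrogenases, hydratases, hydroxyacyl-CoA dehydrogenases and thiolases shorten the chain step by step, while electron transfer flavoprotein passes the electrons on. Peroxisomes run a parallel pathway for very long chains. PPARA is a fatty acid sensor that binds DNA together with RXR and, in liver, raises many of these genes in fasting.

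The libraries held 12884225 to 15076431 gene counts, so 1 count was worth 0.0663 to 0.0776 CPM, the count scaled to a common library total. Replicates of a group varied beyond sampling noise, with a chi-square of 1.40 to 3.70 per degree of freedom. The labelled cell types were checked against 10 hepatocyte markers, which summed to 49230 to 58856 CPM in HepG2 and 74.2 to 106.7 CPM in SK-Hep1. In SK-Hep1 the defining markers were thus nearly absent: ALB, the albumin gene, had 59 and 113 counts under NC TuD and 0 and 4 under miR-17 TuD, and TTR, encoding transthyretin, had 0 counts in every library. Of 7 endothelial markers, ENG averaged 67.1 CPM and EGFL7 12.7 CPM in SK-Hep1 NC TuD, while KDR and PECAM1 were at 0 in all 4 SK-Hep1 libraries. Of 5 tested mesenchymal markers, 4 were higher and 1 lower in SK-Hep1 than in HepG2 under NC TuD, beside 43.9% and 42.8% of all genes. VIM, 1 of this list, stood at 8822 CPM in SK-Hep1 against 1.98 CPM in HepG2. The 6 mesenchymal markers summed to 17219 to 17463 CPM in SK-Hep1 controls and 18389 to 18805 CPM with the decoy, and in HepG2 to 14776 to 16111 and 15528 to 15845 CPM. In each HepG2 library 1 or 2 of the 6 were at 0 counts, so the HepG2 sum came from part of the list. Between the control lines the 5 tested markers had a median log2 difference of 5.72 (SK-Hep1 minus HepG2). In SK-Hep1 the endothelial list summed to 76.9 to 83.2 CPM in controls and 79.3 to 89.1 CPM with the decoy, the macrophage list to 149.8 to 151.6 and 165.9 to 166.8 CPM, and the adipocyte list to at most 0.197 CPM. In HepG2, miR-17 TuD replicate 3 and NC TuD replicate 2 deviated from their own arms in the same way over 8071 well-expressed genes (r = 0.464). Of the 29 tested genes of the set, 10 were highest of their arm in both of these libraries and 7 were lowest in both. Of the genes named below, those whose call changed without this pair are given with their values. Some further calls of the related lists also ended without it and are not named, so the counts of those lists depend in part on this pair. Leaving the pair out was an alternative added after seeing the data.

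A microRNA recognises its targets mainly through the seed, bases 2 to 8 of the mature RNA. The mature sequences of the family are printed with the seed in capitals, because all 6 share it and a decoy for miR-17 may hold any of them. They are from RefSeq, GRCh38.p14.
hsa-miR-17-5p: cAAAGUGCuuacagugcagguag
hsa-miR-20a-5p: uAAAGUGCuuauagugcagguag
hsa-miR-20b-5p: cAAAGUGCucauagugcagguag
hsa-miR-93-5p: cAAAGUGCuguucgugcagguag
hsa-miR-106a-5p: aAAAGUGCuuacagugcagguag
hsa-miR-106b-5p: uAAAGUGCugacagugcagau

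For each gene the longest annotated 3′ untranslated region (3′UTR; GENCODE 29, GRCh38) was read for matches to this seed. Matches of 3 kinds were counted, GCACTTTA (8mer), GCACTTT (7mer-m8) and CACTTTA (7mer-A1). Only the sense strand of the transcript was read. Of the 30 genes, 5 held an 8mer or 7mer-m8 and 9 held any of the 3 kinds, against 25.0% and 31.3% of the 13250 tested genes that were searched. Their 3′UTRs were shorter, with a median of 725.5 bases against 1335. Some of the matches are printed with the match in capitals, and the coordinates are those of the match. Those of EHHADH, ETFDH and PDK4 and the others of PPARA are not printed.
ACADSB 8mer, chr10:123054889-123054896, plus strand: tcttcagtcatggttattGCACTTTAtc
ACADM 7mer-A1, chr1:75762979-75762985, plus strand: gatgtgttttctttagtacCACTTTAct
ACSL1 7mer-A1, chr4:184755912-184755918, minus strand: tgggaaattaacagcagttCACTTTAtt
ACSL4 7mer-m8, chrX:109642629-109642635, minus strand: cttaatactgttattctttGCACTTTtt
CD36 7mer-A1, chr7:80672781-80672787, plus strand: ttgaacctataactggattCACTTTAca
CD36 7mer-A1, chr7:80674206-80674212, plus strand: cttatatattacttgttttCACTTTAtc
PPARA 7mer-m8, chr22:46235796-46235802, plus strand: taattctgaaaactaatcaGCACTTTtt

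The 8mer of ACADSB, which encodes the short/branched-chain acyl-CoA dehydrogenase, was the only 8mer in the set. PPARA, with the longest 3′UTR of the set (8376 bases), held 4 of the 7mer-m8 kind and 1 of the 7mer-A1 kind. The windows around 2 of the PPARA matches and those of EHHADH and ETFDH shared runs of at least 14 bases with one another. PDK4 held 2 matches of the 7mer-A1 kind. FABP1, ACSL3, SLC27A2, PLIN2 and ANGPTL4 held none of the 3 kinds, which says only that these letters are not in the 3′UTR searched. A match is a description of sequence and not evidence of binding.

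In HepG2 the genes called did not move in 1 direction. CD36, ACSL1, SLC27A2, ECI1 and ACADVL were higher with the miR-17 decoy, and FABP1, ACSL3, ACADSB, ACADM and PLIN2 were lower. Of the 29 tested, 5 were higher, 5 were lower and 19 did not pass the test (edgeR, adjusted p below 0.05). Over all 13349 genes, 19.3% were called, 10.7% higher and 8.58% lower. The median log2 change of the 29 was -0.01, against 0.00 over all genes. The calls lay between -0.66 and 0.56 on the log2 scale. Without replicate 1 of either arm there were 3 higher and 3 lower, without replicate 2 of either arm 3 higher and 4 lower, and without the pair that stood apart 4 and 4. Levels in the 2 arms did not overlap for 6 genes that were higher and 8 that were lower, and overlapped for 15, while 31.0% of all genes had arms apart.

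**Figure D1:**
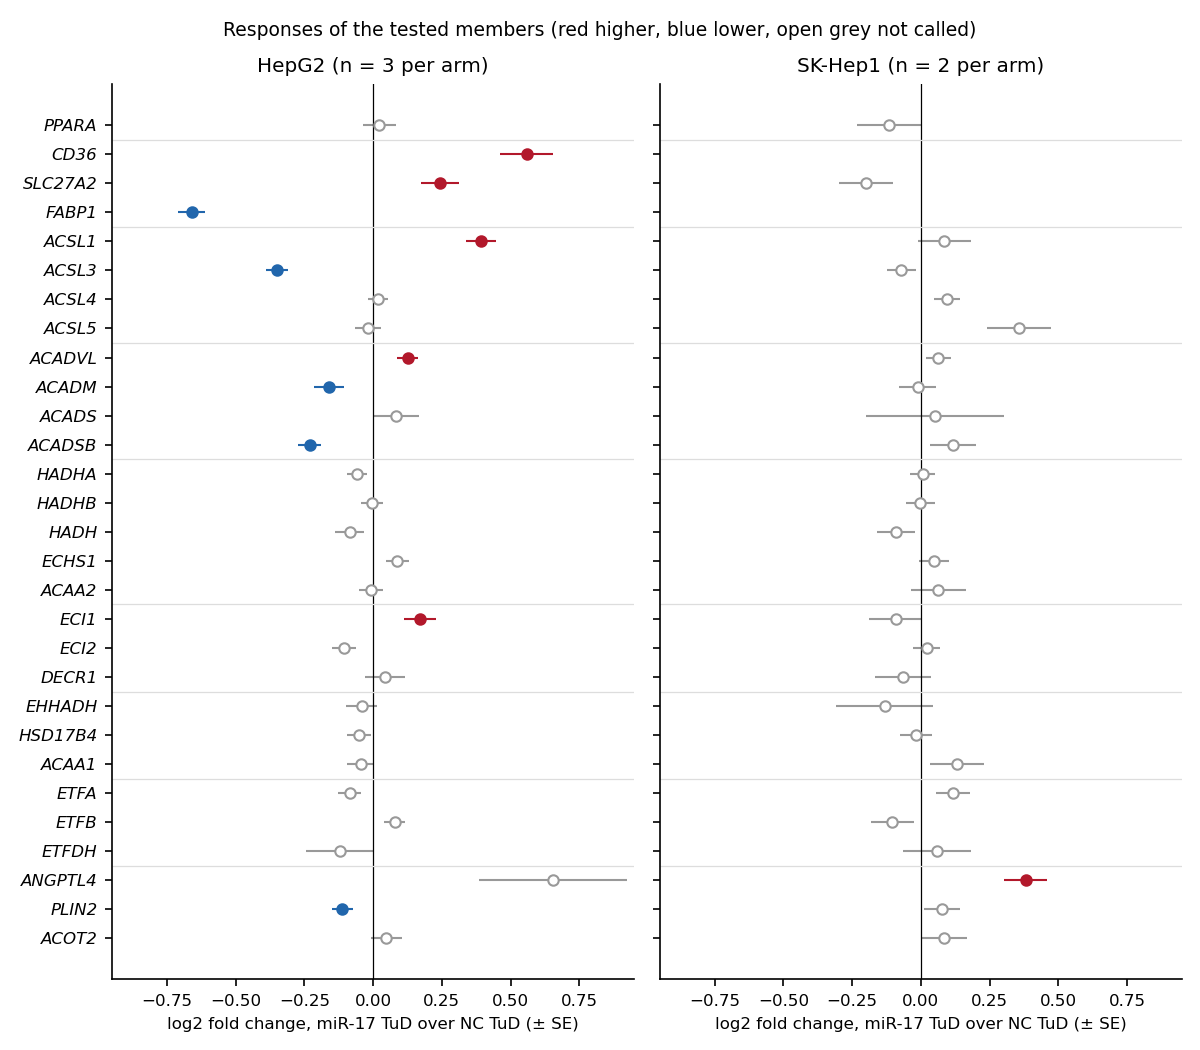
Log2 fold change of miR-17 TuD over NC TuD (± SE) for the tested genes in HepG2 (left, 3 libraries per arm) and SK-Hep1 (right, 2 per arm), grouped by role. Filled points passed the test, red higher and blue lower: 10 in HepG2, of which FABP1 (-0.66) and CD36 (0.56) are the farthest from 0, and 1, ANGPTL4, in SK-Hep1; FABP1 and CD36 are not drawn in SK-Hep1, where they had too few counts.

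Of the genes of uptake and binding, FABP1 changed the most. FABP1 (chr2:88122982-88128116, minus strand) encodes the liver fatty acid binding protein of the cytosol and is itself a PPARA target. It stood at 127.5, 137.7 and 127.0 CPM in the NC TuD libraries and at 80.4, 83.9 and 83.8 CPM in the miR-17 TuD libraries. Every decoy library lay below every control library, and the log2 change was -0.66 ± 0.05 (SE, n = 3 per arm; adjusted p = 2.76e-16). The call held in all 13 alternatives. Hepatocyte markers fell as well: 7 of 10 were lower and 1 higher, and their summed level was 49230 to 51647 CPM with the decoy against 56599 to 58856 CPM in controls. Their part in the FABP1 result was not tested. Fewer cells with hepatocyte features and less RNA per cell cannot be told apart in bulk libraries.

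The membrane receptor gene CD36 (chr7:80369575-80679277, plus strand), whose product takes up long-chain fatty acids and oxidised lipoproteins, moved the other way. Control libraries held 12.5, 12.7 and 12.3 CPM and decoy libraries 18.1, 18.6 and 18.7 CPM, so the arms were well apart. The log2 change was 0.56 ± 0.10 (adjusted p = 1.02e-05), and leaving out any 1 library moved it only between 0.55 and 0.58. The call was lost only with limma on the deposited log2 matrix (adjusted p = 0.411). CD36 is also abundant in adipocytes, macrophages and endothelium. Of the adipocyte list, ADIPOQ, LEP and FABP4 were at 0 counts in all 6 HepG2 libraries, while the list summed to 12.2 to 13.7 CPM with the decoy and 7.79 to 9.19 CPM in controls, all from CIDEC and PLIN1. Both were called higher, PLIN1 by 1.02 at an adjusted p of 0.0483. PLIN1 did not pass without the pair of libraries that stood apart (0.86, adjusted p = 0.179), nor without miR-17 TuD replicate 1 (0.0526) or 2 (0.24) or control replicate 2 (0.197) or 3 (0.148). It was also lost without the filter on low counts, with DESeq2, with limma on the deposited log2 matrix and with a replicate block. CIDEC was lost only with limma. Of the macrophage list, PTPRC and CD163 were at 0 in every HepG2 library, and the list summed to 56.9 to 64.9 CPM with the decoy and 49.0 to 61.3 CPM in controls, nearly all from CD68. The 7 endothelial markers summed to 7.13 to 8.61 CPM with the decoy and 5.62 to 6.99 CPM in controls. The part of these cell types in the CD36 result was not tested.

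SLC27A2, encoding a fatty acid transport protein that also activates very long chains, rose by a smaller amount. Its levels were 43.4, 40.5 and 37.2 CPM with the decoy and 32.4, 34.4 and 35.7 CPM in controls. The arms came close to each other, at 37.2 and 35.7 CPM, and the log2 change was 0.24 ± 0.07 (adjusted p = 0.00808). Without miR-17 TuD replicate 1 it was 0.19 (adjusted p = 0.108), and without NC TuD replicate 1 it was 0.20 (adjusted p = 0.079). The SLC27A2 call also ended with limma on the deposited log2 matrix. SLC27A2 shares 557 exon bases with ATP8B4 in the annotation, and the kit did not record strand. Reads from the shared bases may have been left out as ambiguous or counted for either gene.

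Long-chain acyl-CoA synthetases attach coenzyme A to fatty acids, the step that commits them to oxidation or to lipid synthesis. Among the 4 in the set, ACSL1 rose, ACSL3 fell, and ACSL4 and ACSL5 did not pass the test. ACSL1 (chr4:184755595-184826818, minus strand), the main synthetase of liver and a PPARA target, stood at 74.3, 74.2 and 79.5 CPM with the decoy and at 57.9, 58.8 and 56.8 CPM in controls. All decoy libraries were higher, by 0.39 ± 0.05 on the log2 scale (adjusted p = 9.74e-08). ACSL3 (chr2:222860934-222944639, plus strand), which acts at the endoplasmic reticulum and on lipid droplets, stood at 244.7, 240.0 and 262.0 CPM with the decoy and at 305.7, 333.5 and 312.3 CPM in controls. Its arms did not overlap either, and the log2 change was -0.35 ± 0.04 (adjusted p = 8.55e-10). Both calls held in all 13 alternatives.

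ACSL4, which prefers arachidonic acid, was the most abundant synthetase, with arms that overlapped at 828 to 905 CPM and 815 to 907 CPM (log2 change 0.02 ± 0.04, adjusted p = 0.814). ACSL5, which sits in mitochondrial and endoplasmic reticulum membranes, had levels of 112 to 119 CPM and 112 to 125 CPM (-0.02 ± 0.05, adjusted p = 0.85). Per kilobase of exon, ACSL4 made up 62.2% ± 0.374 (SD, n = 3) of the summed level of these 4 genes in HepG2 controls, ACSL3 20.5% ± 0.170, ACSL5 13.0% ± 0.286 and ACSL1 4.32% ± 0.171. With the decoy ACSL3 made up 16.5% ± 0.186 and ACSL1 5.81% ± 0.0791. These shares are the same measurements on another scale, and ACSL1 remained the smallest of the 4.

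The acyl-CoA dehydrogenases open each turn of mitochondrial beta-oxidation, each for its own chain lengths. ACADSB (chr10:123008979-123058311, plus strand), which acts on short branched chains from isoleucine, fell: its levels were 211.8, 208.5 and 227.3 CPM with the decoy and 243.5, 260.1 and 256.3 CPM in controls. No decoy library reached a control library, and the log2 change was -0.23 ± 0.04 (adjusted p = 1.56e-05), a call that held in all 13 alternatives. It is the gene with the 8mer shown above. ACADM, the medium-chain enzyme, had 73.2, 70.8 and 81.7 CPM with the decoy against 82.5, 87.8 and 81.7 CPM in controls. The arms of ACADM met at 81.7 CPM, and its change of -0.16 ± 0.05 (adjusted p = 0.0258) did not pass without miR-17 TuD replicate 1 (-0.14, adjusted p = 0.126), miR-17 TuD replicate 2 (-0.12, 0.178), NC TuD replicate 1 (-0.17, 0.053) or NC TuD replicate 2 (-0.13, 0.12). The ACADM call also ended with DESeq2, limma on the deposited log2 matrix and a replicate block, so it was lost in 7 of 13 alternatives.

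ACADVL, the enzyme for very long chains, went up: 276.0, 299.4 and 275.1 CPM with the decoy and 258.6, 254.6 and 266.6 CPM in controls. Its arms did not overlap, but the log2 change was only 0.13 ± 0.04 (adjusted p = 0.0133). The ACADVL call ended without miR-17 TuD replicate 2 (0.08, adjusted p = 0.164), NC TuD replicate 1 (0.12, 0.0547) or NC TuD replicate 2 (0.11, 0.0594). It also ended with limma on the deposited log2 matrix and with a replicate block. ACADS, the short-chain enzyme, overlapped between arms at 23.5 to 28.9 CPM and 22.7 to 27.4 CPM (0.08 ± 0.08, adjusted p = 0.539). In the annotation ACADM shares 157 exon bases with RABGGTB and ACADVL shares 85 with DLG4, so their counts are uncertain to that extent.

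The enzymes of the later mitochondrial steps did not pass the test in HepG2, 0 of 5. HADHA and HADHB, the subunits of the trifunctional protein, changed by -0.06 ± 0.04 and -0.00 ± 0.04. HADH, the short-chain hydroxyacyl-CoA dehydrogenase, changed by -0.09 ± 0.05, ECHS1, the short-chain enoyl-CoA hydratase, by 0.09 ± 0.04 and ACAA2, the mitochondrial thiolase, by -0.01 ± 0.04. Their adjusted p ranged from 0.148 for ECHS1 to 0.985 for HADHB. HADHA levels did lie apart by arm, at 306.5 to 313.2 CPM with the decoy and 319.2 to 326.4 CPM in controls, within a spread that the test did not call (adjusted p = 0.28). HADH was likewise lower, at 60.3 to 65.6 CPM against 66.0 to 69.0 CPM in controls. ECHS1 lay apart in the other direction, at 150 to 157 CPM against 143 to 147 CPM. Over the whole set, 8 genes were higher and 7 lower at an unadjusted p below 0.05, beside 30.2% of all genes in either direction.

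Of the auxiliary enzymes for unsaturated chains, ECI1, an enoyl-CoA isomerase of mitochondria, was called higher. Levels of ECI1 were 68.5, 67.8 and 60.6 CPM with the decoy and 61.1, 52.6 and 61.2 CPM in controls, so the arms overlapped. Its log2 change of 0.17 ± 0.06 (adjusted p = 0.0343) did not pass in 8 of 13 alternatives. Among them were the fits without miR-17 TuD replicate 1 (0.14, adjusted p = 0.188), miR-17 TuD replicate 2 (0.15, 0.127) or, of the controls, replicate 2 (0.10, 0.297), and without the pair that stood apart (0.16, 0.0599). ECI2, a peroxisomal and mitochondrial isomerase, had 122.3 to 124.3 CPM with the decoy and 129.2 to 135.5 CPM in controls (-0.11 ± 0.04, adjusted p = 0.076). DECR1, the dienoyl-CoA reductase, changed by 0.04 ± 0.07 (adjusted p = 0.763).

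The peroxisomal enzymes and the electron carriers were not called, 0 of 3 in each group. EHHADH, the bifunctional enzyme and a strong PPARA target in rodents, changed by -0.04 ± 0.06, HSD17B4, the other bifunctional enzyme, by -0.05 ± 0.04 and ACAA1, the peroxisomal thiolase, by -0.04 ± 0.05. For ETFA and ETFB, the subunits of electron transfer flavoprotein, the values were -0.08 ± 0.04 and 0.08 ± 0.04, and for ETFDH, the oxidoreductase that passes the electrons to ubiquinone, -0.12 ± 0.12. ETFB was called higher only without miR-17 TuD replicate 3 (0.12, adjusted p = 0.0143).

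PPARA itself (chr22:46150521-46243756, plus strand) did not pass the test. HepG2 libraries held 50.4, 47.6 and 49.5 CPM with the decoy and 48.7, 46.8 and 49.5 CPM without, ranges that overlap almost entirely. The log2 change was 0.02 ± 0.06 (adjusted p = 0.862), and between -0.00 and 0.05 when 1 library was left out. PPARA held more seed matches than any other gene of the set.

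Among the remaining PPARA targets, PLIN2, a coat protein of lipid droplets, was slightly lower. Decoy libraries held 271.3, 275.1 and 258.5 CPM and control libraries 293.3, 290.0 and 286.9 CPM, with no overlap. The log2 change was -0.11 ± 0.04 (adjusted p = 0.0283), and PLIN2 did not pass without miR-17 TuD replicate 1 (-0.12, adjusted p = 0.0679), miR-17 TuD replicate 3 (-0.09, 0.116), NC TuD replicate 1 (-0.10, 0.108) or the pair that stood apart (-0.09, 0.125). Its call also ended with DESeq2, limma on the deposited log2 matrix and a replicate block, so it was lost in 7 of 13 alternatives. ANGPTL4 (chr19:8363289-8374373, plus strand), which encodes a secreted inhibitor of lipoprotein lipase, was low in HepG2, with 34, 29 and 24 counts with the decoy and 22, 8 and 22 in controls. Every decoy library exceeded every control library, but the log2 change of 0.66 ± 0.27 did not pass (adjusted p = 0.0815). ACOT2, a mitochondrial acyl-CoA thioesterase, changed by 0.05 ± 0.06. It lies beside near-identical relatives such as ACOT1, so reads that align to more than 1 of them may have been left out as not unique. PDK4, the kinase that shuts off pyruvate dehydrogenase in fasting, had 1 count in 1 decoy library and 0 in the other 5 HepG2 libraries, which allows up to 0.199 to 0.233 CPM in a library at 0.

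**Figure D2:**
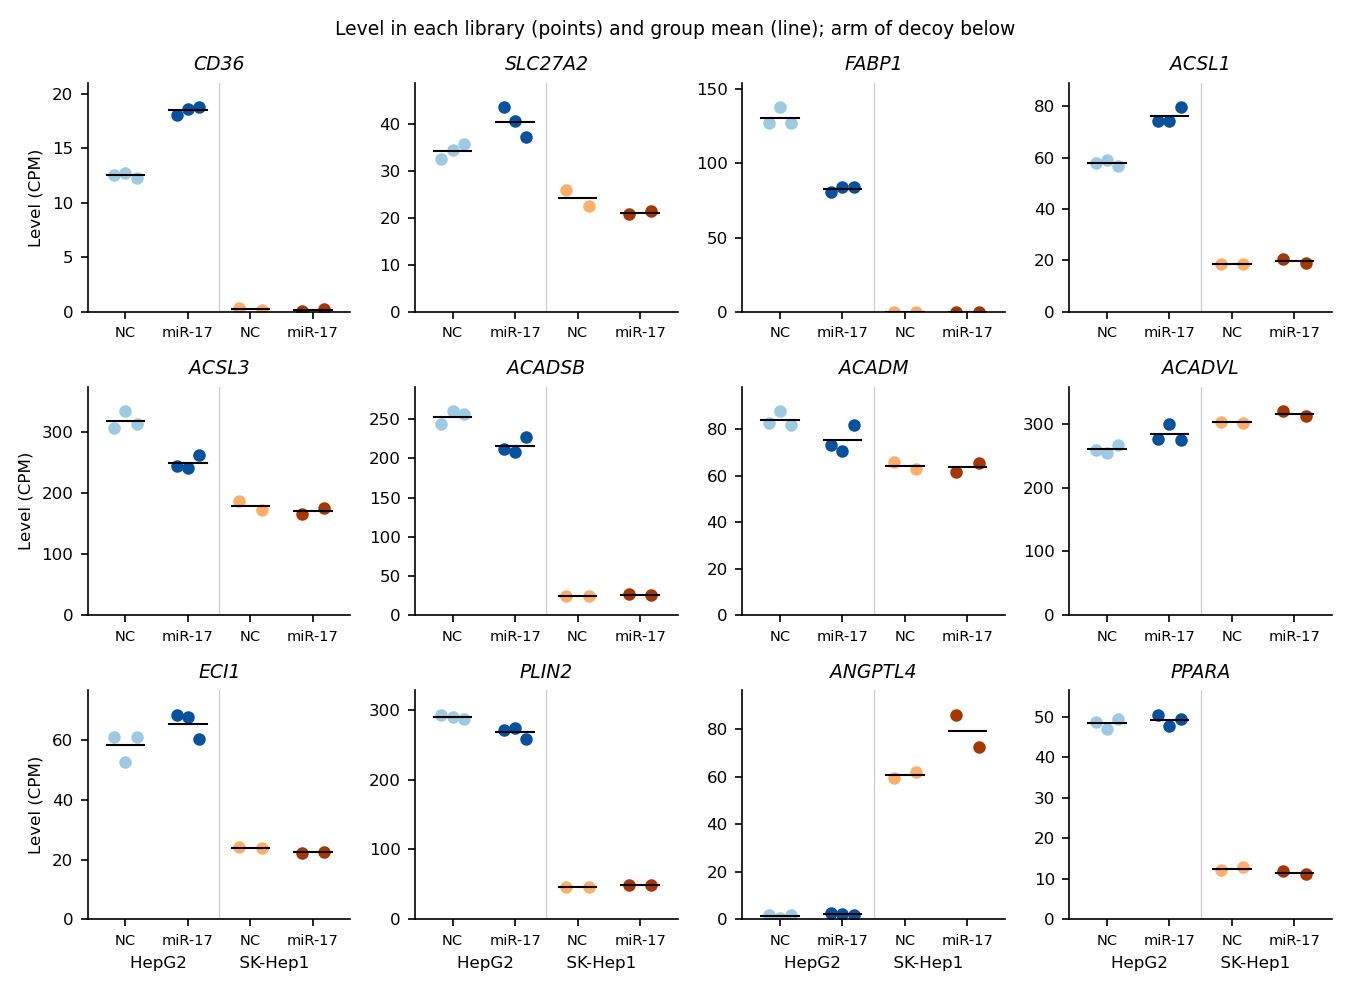
Level (CPM) of 12 genes in each library (points) with the group mean (black line); NC TuD and miR-17 TuD are shown for HepG2 (left pair) and SK-Hep1 (right pair), each axis from 0. FABP1, CD36, ACSL1, ACSL3 and ACADSB separate by arm in HepG2, PPARA does not, and ANGPTL4 is the only one called in SK-Hep1, where FABP1 and CD36 are near 0.

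The other genes of the pathway were read from 4 lists. In HepG2 the carnitine shuttle, which moves acyl groups into mitochondria, had 4 of 7 tested genes higher and 0 lower, with a median log2 change of 0.21, where 10.7% of all genes were called higher and 8.58% lower. CPT1A, the rate-limiting carnitine palmitoyltransferase of liver, rose 2.83-fold, from 21.2 ± 0.990 to 59.7 ± 2.65 CPM (SD, n = 3). On the log2 scale CROT, the peroxisomal carnitine octanoyltransferase, rose by 0.63 ± 0.09, the carnitine carrier gene SLC25A20 by 0.32 ± 0.09 and CRAT, carnitine acetyltransferase, by 0.21 ± 0.06. No gene of the list fell at an unadjusted p below 0.05, and neither DESeq2 nor limma on the deposited matrix called one lower. The calls of CPT1A and CROT held in all 13 alternatives. The SLC25A20 call ended without miR-17 TuD replicate 1 (adjusted p = 0.149). That of CRAT ended without replicate 2 of either arm or NC TuD replicate 1 (up to 0.143). Both also ended with limma on the deposited matrix, and that of SLC25A20 with DESeq2.

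Of 22 other beta-oxidation enzymes and transporters, 5 were higher and 1 lower, with a median of 0.02. That is 27.3% of the list called, beside 19.3% of all genes. The genes called included ECH1, an auxiliary isomerase (0.19 ± 0.05), PHYH, which starts the removal of phytanic acid (0.24 ± 0.08), and the peroxisomal transporter gene ABCD3 (-0.15 ± 0.04). Leaving out 1 library ended the calls of PHYH (replicate 3 of either arm or NC TuD replicate 1) and ABCD3 (miR-17 TuD replicate 2), with adjusted p up to 0.212 and 0.0889. With limma on the deposited matrix the calls of ECH1, PHYH and ABCD3 ended, and with DESeq2 that of PHYH. Over the 22, DESeq2 called 1 higher and 1 lower (1016 and 688 of all 13349 genes). The limma fit called 2 and 0 (619 and 386 of all genes).

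Of 23 tested PPARA targets outside the set, 7 were higher and 0 lower, with a median of 0.22. That is 30.4% of the list called, beside 19.3% of all genes. At an unadjusted p below 0.05, 10 were higher and 0 lower, where 2131 of all 13349 genes were higher and 1896 lower. DESeq2 called 4 of the list higher and 0 lower (1016 and 688 of all genes), and limma on the deposited matrix 1 and 0 (619 and 386). Besides CPT1A and SLC25A20, which stand in 2 lists, GPD1, the cytosolic glycerol phosphate dehydrogenase, rose by 0.55 ± 0.08, CIDEC, a lipid droplet protein, by 0.61 ± 0.12 and TXNIP, which inhibits thioredoxin, by 0.21 ± 0.05. Not all of these report on fatty acid oxidation: CIDEC promotes lipid storage. FGF21, a fasting hormone gene of liver, was at 0 counts in every HepG2 library and was not tested.

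Of 19 tested partners and coregulators of the receptor, 5 were higher and 1 lower, with a median of -0.01. That is 31.6% of the list called, beside 19.3% of all genes. HNF4A, a master regulator of hepatocyte genes, rose by 0.20 ± 0.04, and the coactivator genes NCOA1 and NCOA3 by 0.38 ± 0.07 and 0.19 ± 0.05. PPARGC1B, a coactivator of mitochondrial genes and the only one that fell, fell by 0.45 ± 0.14, which did not pass if miR-17 TuD replicate 1 or replicate 3 of the control arm was left out (adjusted p up to 0.0869). The PPARGC1B call also ended with DESeq2, and those of HNF4A and NCOA3 with limma on the deposited matrix. Over the 19, DESeq2 called 4 higher and 0 lower (1016 and 688 of all 13349 genes). The limma fit called 1 and 1 (619 and 386 of all genes). RXRA, the DNA-binding partner of PPARA, changed by -0.04 ± 0.06 and PPARGC1A, encoding PGC-1alpha, by -0.05 ± 0.07.

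**Figure D3:**
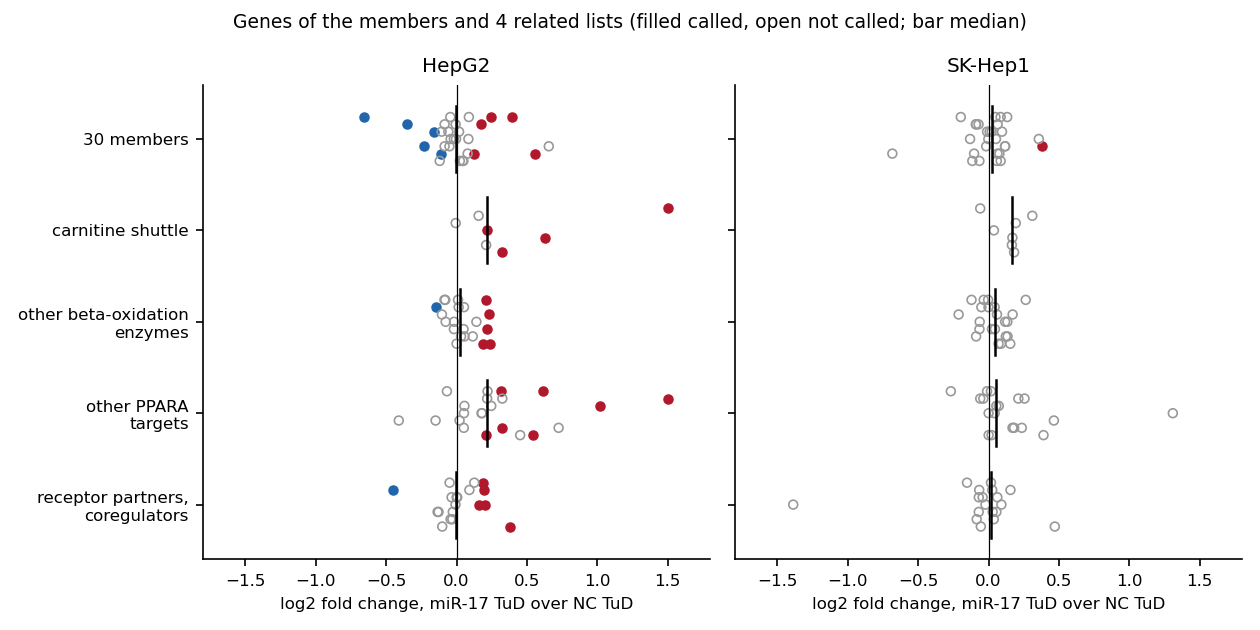
Log2 fold change of miR-17 TuD over NC TuD for the tested genes of the set and of 4 related lists in HepG2 (left) and SK-Hep1 (right); filled points passed the test (red higher, blue lower), bars are medians. Carnitine shuttle and other PPARA target genes in HepG2 have medians of 0.21 and 0.22 while the set's is -0.01; 2 genes in HepG2 (ECHDC3, ACOT4) and 6 in SK-Hep1 (FABP1, APOA5, CIDEC, CREB3L3, PLIN5, PPARGC1A) lie beyond 1.7 and are not drawn, and none of them was called.

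Promoters of the set, 250 bases before to 50 after each start site in RefSeq on GRCh38.p14, were searched on both strands for the direct repeat that PPARA and RXR bind, AGGTCANAGGTCA. None of the 42 windows of the set held it, nor the looser AGGNCANAGGNCA, against 0.0228% and 0.31% of 35116 windows of all genes. The shorter motif AGGTCA, which is part of the first motif, was in 2 of the 42 windows, those of FABP1 and ACSL5, and in 13.8% of all. Known response elements often lie outside such windows, and no sequence was read beyond them.

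In SK-Hep1 the only gene of the set called was ANGPTL4, which was abundant there. Control libraries held 59.6 and 61.8 CPM and decoy libraries 86.0 and 72.3 CPM. Both decoy libraries were higher, and the log2 change was 0.38 ± 0.08 (SE, n = 2 per arm; adjusted p = 0.00225). ANGPTL4 was lost without miR-17 TuD replicate 1 (0.25, adjusted p = 0.504), without NC TuD replicate 1 (0.36, 0.109) and with limma on the deposited matrix (0.907), and DESeq2 called it at an adjusted p of 0.0481. Of all tested genes, 0.869% were called in SK-Hep1, 0.667% higher and 0.202% lower. The median over the 29 genes was 0.02 (-0.01 over all genes). At an unadjusted p below 0.05, 2 of the 29 were higher and 1 lower, beside 8.36% of all genes. Levels lay apart by arm for 12 genes that were higher and 7 that were lower with the decoy, beside 40.4% of all genes.

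ACSL5 had the next largest change among well-counted genes. Its levels in SK-Hep1 were 14.6 and 13.4 CPM with the decoy and 11.1 and 10.7 CPM in controls, and the log2 change of 0.36 ± 0.12 did not pass (adjusted p = 0.167). ACSL1, ACSL3 and ACSL4 changed by 0.09 ± 0.10, -0.07 ± 0.05 and 0.09 ± 0.05. SLC27A2 had 20.7 and 21.4 CPM with the decoy and 25.9 and 22.5 CPM in controls (-0.20 ± 0.10, adjusted p = 0.592). For PPARA, the decoy libraries held 11.8 and 11.2 CPM and the controls 12.2 and 12.7 CPM (-0.12 ± 0.12, adjusted p = 0.845).

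FABP1, CD36 and PDK4 were at the limit of detection in SK-Hep1. FABP1 had 1 and 1 counts in controls and 0 and 0 with the decoy, in libraries whose ALB counts were 59 and 113 against 0 and 4. Of the 10 hepatocyte markers in SK-Hep1, 5 were lower with the decoy, with 1 at 0 counts in each control library and 3 or 4 at 0 in each decoy library, and 1, FGB, was higher. Their part in the FABP1 counts was not tested, although limma on the deposited matrix called FABP1 lower (-1.49). CD36 had 5 and 2 counts in controls and 1 and 3 with the decoy, a ratio per library size of 0.608 with an exact 95% interval of 0.131 to 2.39. PDK4 had 3 and 2 counts in controls and 8 and 9 with the decoy, a ratio of 3.62 (1.28 to 12.5). These intervals cover counting error only, and without the filter on low counts the edgeR test did not call PDK4 (adjusted p = 0.535).

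No gene of the 4 related lists passed in SK-Hep1 by edgeR. At an unadjusted p below 0.05 the counts were 1 of 7 for the carnitine shuttle, 0 of 22 for other beta-oxidation enzymes, 1 of 23 for other PPARA targets, all higher, and 2 higher and 1 lower of 19 partners and coregulators. DESeq2 called none, and limma on the deposited matrix called PPARGC1A, which had a mean of 0.107 CPM with the decoy and 0 in controls. CPT1A stood at 45.4 ± 0.587 CPM with the decoy and 47.3 ± 3.31 CPM in controls (SD, 2 libraries each; log2 change -0.06 ± 0.07, adjusted p = 0.896).

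Whether a gene responded differently in the 2 lines was tested directly, as the SK-Hep1 response minus the HepG2 response. Of the 29 genes, 2 had a higher difference and 1 a lower one, beside 3.75% of all genes (1.24% higher, 2.51% lower). The ACSL3 difference was 0.28 ± 0.07 (adjusted p = 0.00641), from -0.35 in HepG2 and -0.07 in SK-Hep1. For ACADSB it was 0.35 ± 0.09 (adjusted p = 0.0214), from -0.23 and 0.12, and for SLC27A2 -0.44 ± 0.12 (adjusted p = 0.0229), from 0.24 and -0.20. The median of the 29 differences was 0.00, and -0.01 over all genes. The ACSL1 difference was -0.31 ± 0.11 and did not pass (adjusted p = 0.119), and neither did that of ANGPTL4 (-0.27 ± 0.28, 0.71) or ACSL5 (0.38 ± 0.13, 0.0847). For FABP1 and CD36 the SK-Hep1 counts were too few to compare responses.

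Each of these 3 calls depended on single SK-Hep1 libraries. ACSL3 did not pass without NC TuD replicate 2 of SK-Hep1 (0.22, adjusted p = 0.138) or its miR-17 TuD replicate 2 (0.24, 0.0941). ACADSB did not pass without any 1 of the 4 SK-Hep1 libraries (0.33 to 0.36, adjusted p = 0.0649 to 0.115) or without HepG2 miR-17 TuD replicate 1 (0.33, 0.0519). SLC27A2 did not pass without SK-Hep1 NC TuD replicate 1 (-0.34, adjusted p = 0.236), either SK-Hep1 miR-17 TuD library (-0.42 and -0.47, 0.108 and 0.0652), HepG2 miR-17 TuD replicate 1 (-0.39, 0.0956) or HepG2 NC TuD replicate 1 (-0.40, 0.0856). Without the HepG2 pair that stood apart, all 3 passed and ETFA was called too (0.23, adjusted p = 0.0392).

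Between the lines under the control decoy, the genes of the set were mostly lower in SK-Hep1. Of the 29 tested, 25 were lower and 4 higher, but 86.7% of all genes differed between the lines (43.9% higher, 42.8% lower). FABP1 and CD36 had passed the filter only through HepG2, where they are high, and so had to differ. Among the 27 genes that passed in both lines, 23 were lower and 4 higher, with a median log2 difference of -0.98. Over all tested genes the median was 0.02, but these include genes that passed through 1 line only. The 2 lines differ in origin and culture history, and the set was compared in 1 stable control line of each.

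Counts of FABP1 and CD36, given as a description only, were near 0 in SK-Hep1. FABP1 had 5225 counts over the 3 HepG2 control libraries and 2 over the 2 SK-Hep1 control libraries, a ratio of 1923 (exact 95% interval 532 to 15886). CD36 had 501 and 7 counts, a ratio of 52.7 (25.4 to 131.7). Of the genes that passed the filter in both lines, 6 were lower in SK-Hep1 by more than 3 on the log2 scale. EHHADH went from 72.8 ± 2.89 CPM (SD, n = 3) in HepG2 to 5.24 ± 0.634 CPM (n = 2) in SK-Hep1, a log2 difference of -3.80 ± 0.10 (SE). ACSL5 differed by -3.42 ± 0.08, ETFB by -3.39 ± 0.06, ACADSB by -3.38 ± 0.06, ACADS by -3.28 ± 0.15 and ACAA2 by -3.06 ± 0.07. PPARA was lower too, at 12.4 ± 0.414 CPM against 48.3 ± 1.37 CPM (-1.96 ± 0.09, adjusted p = 3.07e-29).

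The mitochondrial enzymes ACADS, ACADSB, ACAA2 and ETFB were thus among the widest gaps, while others were closer to equal. HADHA differed by -0.74 ± 0.04, HADHB by -0.55 ± 0.05, ECHS1 by -0.33 ± 0.05, HADH by -0.31 ± 0.06 and ACADM by -0.39 ± 0.06, all called lower. The partners ETFA and ETFB, which form 1 heterodimer, were unequal: ETFA was lower by 1.57 ± 0.05 on the log2 scale, from 207 ± 4.57 to 69.5 ± 2.49 CPM, and ETFB went from 382 ± 13.4 to 36.4 ± 0.0867 CPM. Higher in SK-Hep1 were ACADVL (0.22 ± 0.04), ECI2 (0.62 ± 0.05), ETFDH (0.65 ± 0.12) and, far beyond these, ANGPTL4 (5.54 ± 0.14, from 1.28 ± 0.558 to 60.7 ± 1.52 CPM). ECI2 shares 1242 exon bases with C6orf201 and ETFDH 621 with C4orf46 and PPID. Reads from the shared bases may be missing from the counts of ECI2 and ETFDH or may come from those other genes. Scaling by DESeq2's size factors (RLE) kept all 4 higher.

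The order of the genes by level was read per kilobase of exon, with the mean and SD of each group. In HepG2 controls ACSL4 led at 132.8 ± 7.63 CPM per kb, then ECHS1 (89.7 ± 1.34), HADHA (73.8 ± 0.863), ETFB (58.6 ± 2.06) and PLIN2 (57.0 ± 0.624), and FABP1 was 7th at 52.9 ± 2.44. ETFB and PLIN2 were within 1 SD of each other, as were ACADVL (53.4 ± 1.26) and FABP1. In SK-Hep1 controls ECHS1 led at 71.6 ± 1.10 CPM per kb, then ACADVL (62.1 ± 0.310), ECI2 (44.4 ± 0.762), HADHA (44.3 ± 0.690) and ACSL4 (41.3 ± 1.48), with ECI2 and HADHA not apart beyond their spread. PPARA ranked 26th of 30 in HepG2 at 3.66 ± 0.103 CPM per kb and 27th in SK-Hep1 at 0.942 ± 0.0313. ANGPTL4 ranked 29th in HepG2 and 8th in SK-Hep1. Among the 4 synthetases, ACSL3 made up 34.5% ± 0.606 (SD, n = 2) of the summed level in SK-Hep1 controls and ACSL5 3.597% ± 0.0596, against 20.5% and 13.0% in HepG2.

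**Figure D4:**
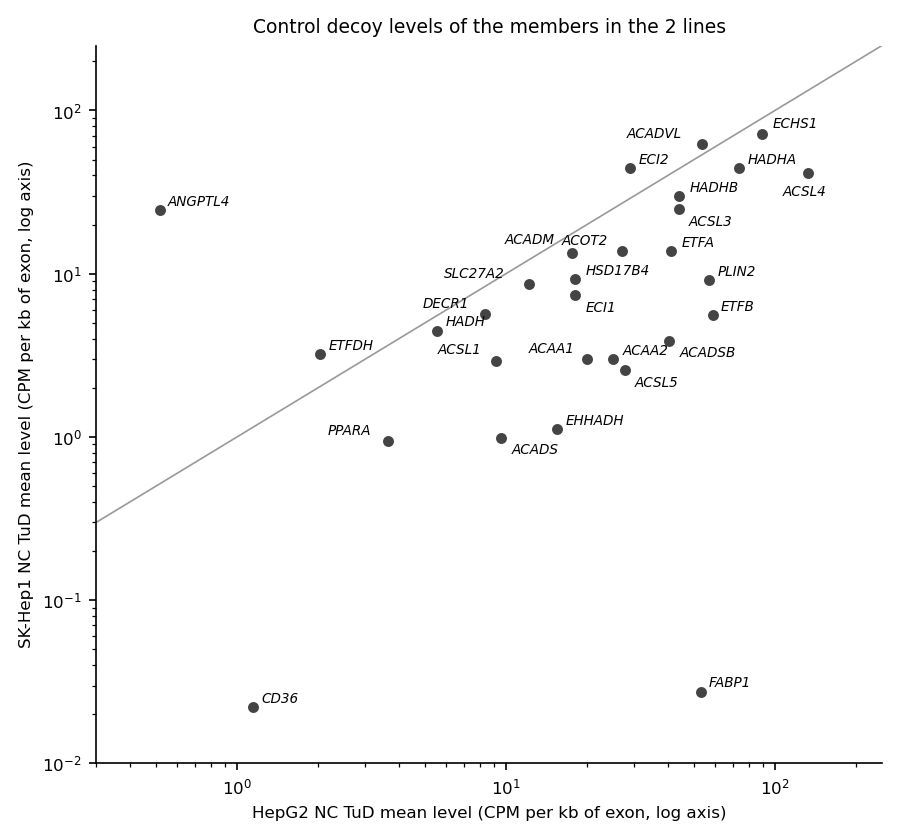
Mean control decoy level (CPM per kb of exon, log axes) of each gene of the set in HepG2 (horizontal, n = 3) and SK-Hep1 (vertical, n = 2); the diagonal marks equal levels and PDK4, at 0 in HepG2, is left out. ANGPTL4, ETFDH, ECI2 and ACADVL lie above the diagonal and the other 25 lie below it, FABP1 and CD36 by the most.

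Seed matches and responses in HepG2 were set side by side as a description. Of the 5 genes that were higher, 2 held a match (ACSL1 and CD36, both of the 7mer-A1 kind), and of the 5 that were lower, 2 did (the 8mer of ACADSB and the 7mer-A1 of ACADM). Of the 19 that were not called, 4 did (PPARA, ACSL4, EHHADH and ETFDH).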

How the data were processed

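RNA from 10 libraries (150 ng each, 50 bp read pairs, TruSeq v2, which does not record strand) was analysed. Raw counts per gene were deposited by the authors. The submitters' processing notes name FastQC, STAR, SAMtools, HTSeq 0.5.4p5, limma and hg19. The series' design text names Bowtie, TopHat, RSEM and a mouse genome instead. The count files hold human gene symbols and summary rows under HTSeq's names, as in the processing notes. The alignment steps and the settings behind the counts are not settled. A log2 matrix of 13658 genes, deposited by the authors, served as an alternative. Summary rows that name no gene were left out: no feature 11.6 to 14.1%, ambiguous 0.584 to 0.619%, not unique 4.47 to 5.04%, not aligned 2.43 to 2.87%. Libraries were grouped by their labels.

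Counts were tested with edgeR 4.0.16 (R 4.3.3): filterByExpr by group, TMM scaling, 1 quasi-likelihood fit of 4 group means over all 10 libraries, two-sided tests, Benjamini-Hochberg adjustment over 13349 genes, called below 0.05. Fold changes are log2 ± SE. DESeq2 1.42.0, limma 3.58.1 on the log2 matrix, RLE scaling, no filter, the contrast's own libraries, a replicate block and leaving out each library were alternatives. CPM used the total over the 13349 tested genes in each library, scaled by TMM. The worth of 1 count and the limit for a library at 0 used the unscaled gene total. Lengths, coordinates and 3′UTRs came from GENCODE 29 (GRCh38), not from the build of the counts. Ratios of sparse counts carry exact 95% intervals that cover counting error only.

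The gene set and lists were chosen with earlier results of these data known. Every gene of the set is accounted for. Of each related list, up to 4 called genes with the smallest adjusted p are named, except some that are not reported here; PPARGC1B, FGF21, RXRA and PPARGC1A were named after their values were seen. Genes most like PPARA across libraries are not given, because the lines form separate clusters.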

Additional observations from a re-analysis of the deposited data

Results flagged for a closer look

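For 7 genes the response to the decoy differed between the lines by a test of the difference itself (SK-Hep1 minus HepG2, log2 scale). In the fatty acid oxidation set these were ACADSB (0.35), ACSL3 (0.28) and SLC27A2 (-0.44), described above. In the related lists, CPT1A had a difference of -1.56 (adjusted p = 5.83e-18), which passed without any 1 of the 10 libraries. For CROT it was -0.46 (adjusted p = 0.0346), for the coactivator gene NCOA1 -0.43 (0.02) and for CREBBP, which encodes a histone acetyltransferase, -0.28 (0.0471). The difference did not pass without 1 library in 6 of 10 cases for CROT, 3 of 10 for NCOA1 and 7 of 10 for CREBBP. Groups of 3 and 2 libraries were too small for a check of single outlying values.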

How the results depend on the processing

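Of the gene set's values under the alternatives, 1475 kept their side of the threshold, 53 lost the call and 4 gained one. None that was called under either setting changed direction (0 reversed). Values called under neither setting could change sign, and 224 did over the set and the related lists together. In HepG2, where 5 were higher and 5 lower, limma on the deposited matrix gave 1 and 3 and DESeq2 gave 3 lower. Leaving out 1 library gave 3 to 6 higher and 3 to 5 lower. In SK-Hep1, limma on the deposited matrix called 0 higher and 1 lower, and leaving out 1 library gave 0 to 1 higher. For the difference of responses, limma called 0 higher and DESeq2 0 lower, while leaving out 1 library gave 0 to 2 higher and 0 to 1 lower. The median difference between control lines (-1.29) was -1.13 without the filter, -1.36 without the pair of libraries that stood apart, -1.14 with DESeq2 and -1.14 with limma, and -1.36 to -1.25 with 1 library left out. With 1 library left in an arm, that library is assumed to vary like the other groups. The cause of these changes was not tested.

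Replicate numbers did not pair the libraries: deviations of same-numbered HepG2 libraries correlated at -0.417 to 0.0732, other pairs at -0.142 to 0.464, and the SK-Hep1 numbers at -0.114. The replicate block gave 3 higher and 3 lower in HepG2, 1 and 0 in SK-Hep1, and 0 and 0 for the difference. With the SK-Hep1 numbers crossed, an alternative added after seeing the data, the block again gave 1 and 0.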
